A study of Homo sapiens with 1 sample.

Results

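The radial glia markers described here are 9 genes that encode parts of the cytoskeleton, the extracellular matrix and the lipid-binding machinery of neural stem cells, together with a receptor, a transporter and the genes LIX1 and HOPX. They are NES, VIM, FABP7, FABP5, PTPRZ1, LIX1, SLC1A3, HOPX and TNC. They were taken by gene symbol from the 33538 genes listed in the count table, and all 9 were found. The data came from 1 single-cell RNA-seq library (labelled hHAR123, genotype WT) of H9 cells, a long-established human embryonic stem cell (hESC) line, which here carried the human form of HAR123, a sequence within the gene SMG6 that the study describes as an enhancer. Differentiation towards neural progenitor cells (NPCs) used Dorsomorphin and SB431542, which block BMP and TGF-beta signaling, with a Rock inhibitor at the start, then embryoid bodies that were replated, and cells were collected ahead of rosette selection. Cells of independent clones had been pooled, so clones cannot be told apart. With 1 library there was no replicate, no test was run, and every interval below is an exact 95% interval that covers counting error only.

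Radial glia are the stem cells of the developing brain. Their long fibers hold the intermediate filament proteins nestin and vimentin, and they divide at the ventricle to give neurons and later glia. They carry fatty acid binding proteins, which ferry lipids inside the cell, and glutamate transporters. PTPRZ1, TNC and HOPX are best known from the outer radial glia of the human cortex, which lie away from the ventricle. Neurons lose most of these proteins as they mature, whereas vimentin is also a protein of mesenchymal and contractile cells.

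Cells with 2000 to 10000 detected genes and a share of mitochondrial UMIs below 0.1 were kept, which left 13925 of 14726 barcodes. A UMI (unique molecular identifier) stands for 1 captured RNA molecule. Contractile cells were those with 5 or more UMIs of ANXA1, TFPI2 and CTGF together per 10000 UMIs, and there were 1557 of them (11.2% of kept cells, 10.7 to 11.7%). Newborn neuron-like cells had 5 or more UMIs of STMN2, ELAVL4 and NHLH1 per 10000 and were not contractile, and there were 118 of them (0.847%, 0.702 to 1.01%). The 12223 cells under both thresholds are called remaining progenitors, and 27 cells over both thresholds were left out. No member took part in choosing the cells. Contractile cells were the most deeply sampled, with a median of 47278 UMIs against 16956 in remaining progenitors and 13095 in newborn neuron-like cells. Levels are therefore given as CPM, the UMIs of a gene per 1000000 UMIs of the cell group.

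The names of the groups were checked against marker lists. All 12 further contractile markers were over 10 CPM in contractile cells, and their summed level was 16720 CPM against 2527 CPM in remaining progenitors and 747 CPM in newborn neuron-like cells. TAGLN, an actin-binding protein of smooth muscle, stood at 4598, 446 and 75.5 CPM in these groups. All 12 further neuronal markers were over 10 CPM in newborn neuron-like cells, where they summed to 3335 CPM against 808 CPM in remaining progenitors. NEUROD1, a neurogenic transcription factor, was at 138 CPM in newborn neuron-like cells and at 0.301 CPM in remaining progenitors. The 8 neural progenitor markers summed to 1385 CPM in remaining progenitors, 823 CPM in newborn neuron-like cells and 404 CPM in contractile cells. GFAP and AQP4, which define astrocytes, were below 0.1 CPM in contractile cells and remaining progenitors and at 0 UMIs in newborn neuron-like cells. Among the 6 pluripotency markers, USP44, DPPA4 and L1TD1 were at 137, 126 and 85.8 CPM in remaining progenitors. They were at 78.8, 66.7 and 25.8 CPM in contractile cells. POU5F1 and NANOG were at 0.0889 and 0.381 CPM in remaining progenitors. Among markers of other cell types, those of epithelia were the most abundant in contractile cells, but not in remaining progenitors. The 6 epithelial markers summed to 837 CPM in contractile cells and 210 CPM in remaining progenitors, with KRT18 at 393 against 83.3 CPM, KRT8 at 280 against 77.3 CPM and CLDN6 at 147 against 14.8 CPM. KRT19 (14.3 against 29.6 CPM) and EPCAM (3.82 against 4.74 CPM) were lower in contractile cells. CDH1, the cadherin that defines epithelia, was at 0.199 CPM in contractile cells and 0.186 CPM in remaining progenitors. The 6 endoderm markers summed to 11.6 against 1.95 CPM, most of it AFP, alpha-fetoprotein (9.20 against 0.241 CPM), while SOX17 and FOXA2, which define endoderm, had 0 UMIs in contractile cells. The 8 markers of neural crest and mesenchyme summed to 87.6 against 19.2 CPM, most of it the collagen gene COL1A2 (68.7 against 8.20 CPM), and the 6 endothelial markers to 32.9 against 21.2 CPM. The part of such cells in the results below was not tested.

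The members are spread over 8 chromosomes in GRCh38. NES lies on the minus strand at chr1:156668763-156677407, VIM on the plus strand at chr10:17228241-17237593 and FABP7 on the plus strand at chr6:122779716-122784074. PTPRZ1 is at chr7:121873089-122062036 on the plus strand and TNC at chr9:115019575-115118207 on the minus strand. LIX1 (chr5:97091867-97142753, minus) and SLC1A3 (chr5:36596588-36688334, plus) share a chromosome without being neighbors, and HOPX is at chr4:56647989-56681877 on the minus strand. LIX1-AS1, an antisense gene, spans all of LIX1 and held 4784 UMIs in kept cells, and the strand setting of the counting is not given in the sources used here. 

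Sequences upstream of 3 members are shown because these genes stood for the 3 patterns described below. FABP7 was lower in contractile cells, TNC was low outside them, and VIM was higher in them and differed between cell cycle phases. The windows are from RefSeq (GRCh38.p14), run 5′ to 3′ in the direction of the gene, and end at the base before the annotated gene. FABP7 is chr6:122779466-122779715 (plus strand), VIM is chr10:17227991-17228240 (plus strand) and TNC is chr9:115118208-115118407 (minus strand). Capitals mark matches to 7 short motifs searched on both strands.
FABP7: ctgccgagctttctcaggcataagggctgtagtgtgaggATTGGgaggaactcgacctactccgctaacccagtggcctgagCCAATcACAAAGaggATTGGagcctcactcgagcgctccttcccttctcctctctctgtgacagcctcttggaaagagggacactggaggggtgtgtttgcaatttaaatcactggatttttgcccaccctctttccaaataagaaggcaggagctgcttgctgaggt
VIM: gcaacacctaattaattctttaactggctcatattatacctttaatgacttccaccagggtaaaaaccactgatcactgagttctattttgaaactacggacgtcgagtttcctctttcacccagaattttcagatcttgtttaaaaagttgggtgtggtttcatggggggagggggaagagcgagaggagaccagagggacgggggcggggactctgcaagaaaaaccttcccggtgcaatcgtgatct
TNC: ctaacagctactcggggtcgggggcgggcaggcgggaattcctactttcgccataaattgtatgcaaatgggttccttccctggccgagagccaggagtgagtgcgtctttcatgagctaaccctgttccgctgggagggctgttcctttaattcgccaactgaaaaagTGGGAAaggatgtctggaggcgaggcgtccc

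The motifs were TEAD (GGAATG), AP-1 (TGANTCA), RBPJ (TGGGAA), SOX (ACAAAG), the TATA box (TATAAA), the CCAAT box (CCAAT) and the CArG box, which is given by name only. The FABP7 window held 3 CCAAT matches and 1 SOX match between 211 and 153 bases before the RefSeq start, and no match overlapped another. Of all 35116 promoter windows of 250 bases, 32% held a CCAAT match and 13.7% a SOX match. The TNC window held 1 RBPJ match, 81 bases before the RefSeq start, as did 20.8% of all windows. That start lies inside the annotated gene, so the match is nearer than this to the end of the printed sequence. The VIM window held none of the 7, and TEAD, AP-1, TATA and CArG matches were found in 11.9%, 6.57%, 10.7% and 1.16% of all windows. Such matches are letters in a window and not sites of binding. Windows were given for 7 of the 9 members, all except FABP5 and LIX1.

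Contractile cells differed from remaining progenitors in 7 of the 9 members by 1.5-fold or more. NES, VIM, FABP5, TNC and HOPX were higher, FABP7 and PTPRZ1 were lower, and LIX1 and SLC1A3 were within 1.5-fold. Among the 10000 genes with at least 10 CPM over all kept cells, 11.2% were at least 1.5-fold higher in contractile cells and 26.6% at least 1.5-fold lower. The median ratio of these genes was 0.868. TNC passed this level filter only through its UMIs in contractile cells, and HOPX, at 0.458 CPM over all kept cells, did not pass it.

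**Figure D1:**
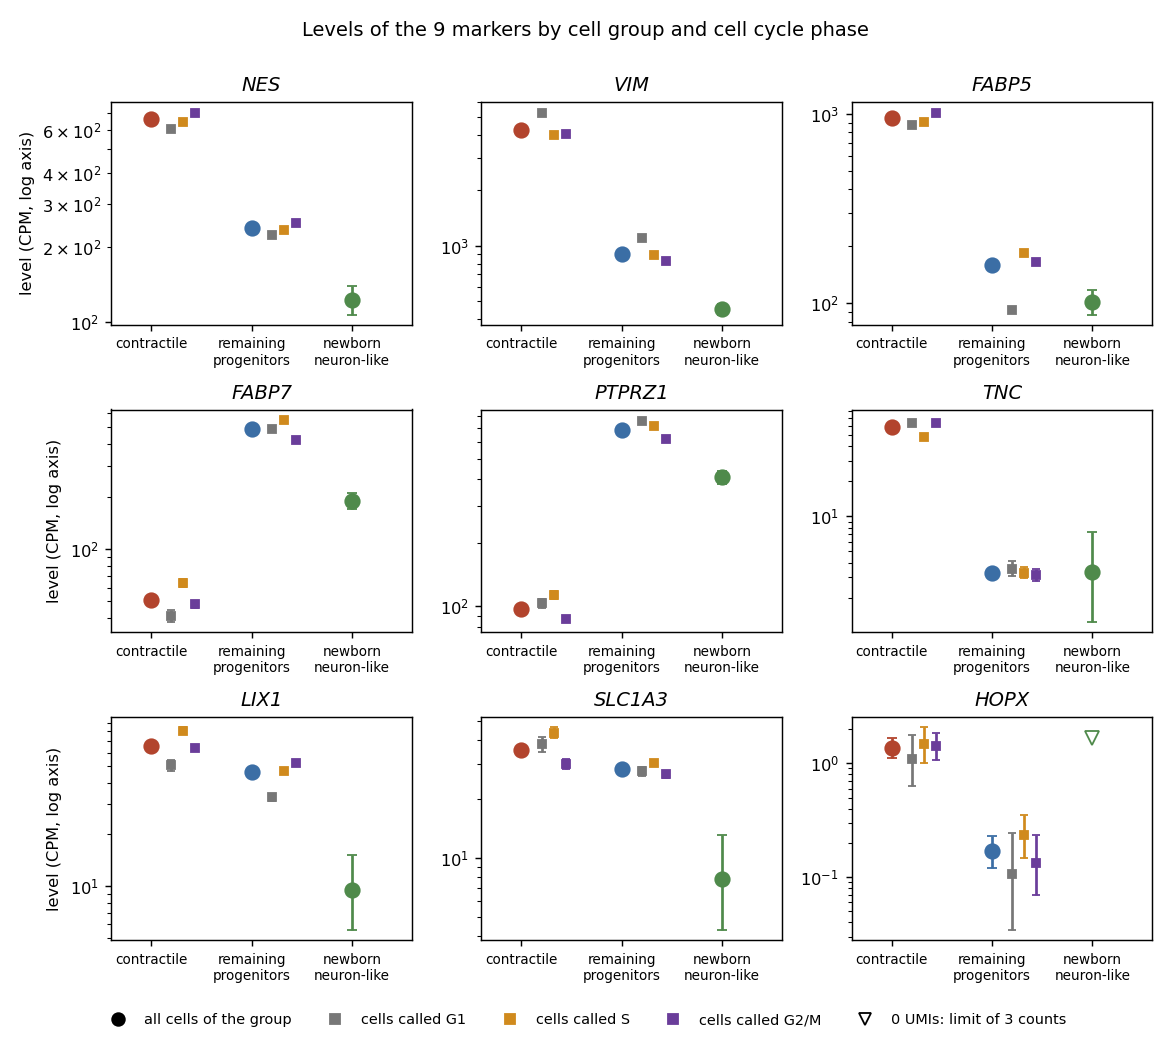
Level of each of the 9 markers (y axis, CPM, log scale) in contractile cells, remaining progenitors and newborn neuron-like cells. Circles are all cells of a group, squares the cells called G1, S or G2/M, bars are exact 95% counting intervals, and the triangle marks the limit of 3 counts for HOPX, which had 0 UMIs in newborn neuron-like cells. NES, VIM, FABP5 and TNC are highest in contractile cells, while FABP7 and PTPRZ1 are highest in remaining progenitors.

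Both intermediate filament genes were higher in contractile cells. NES encodes nestin, the filament protein by which neural stem cells are usually recognized. Its level was 666 CPM (660 to 672) in contractile cells and 239 CPM (237 to 241) in remaining progenitors, a ratio of 2.78 (2.75 to 2.82). VIM encodes vimentin, and its level was 4270 CPM (4255 to 4284) against 908 CPM (904 to 912), a ratio of 4.70 (4.68 to 4.73). The average contractile cell held 207 VIM UMIs and the average remaining progenitor 17.5. The rest of the filament family did not share one direction. Of 15 other intermediate filament genes, 10 reached 10 CPM, of which 2 were at least 1.5-fold higher and 5 at least 1.5-fold lower, with a median ratio of 0.833. KRT18 (393 against 83.3 CPM, ratio 4.71) and KRT8 (280 against 77.3 CPM, ratio 3.62), the keratins of simple epithelia, were the higher pair, while KRT19, another keratin of simple epithelia, was lower (14.3 against 29.6 CPM, ratio 0.4845). NEFM (38.5 against 240 CPM, ratio 0.160) and NEFL (15.1 against 49.0 CPM, ratio 0.307), which form the filaments of axons, were among the lower ones.

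The fatty acid binding proteins FABP7 and FABP5 went opposite ways. FABP7 encodes brain lipid-binding protein, a classical radial glia protein and a known target of Notch signaling. Its level was 51.2 CPM (49.7 to 52.9) in contractile cells and 488 CPM (485 to 491) in remaining progenitors, 9.52-fold lower. FABP5 encodes the epidermal member of the family, which is found in many dividing cells. The gene lies at chr8:81280536-81284777 on the plus strand and has processed pseudogene copies elsewhere, so reads that match a copy could have been lost from its count. It stood at 957 CPM (951 to 964) against 159 CPM (157 to 160), a ratio of 6.03 (5.96 to 6.11). FABP7 made up 5.08% (4.93 to 5.24%) of the FABP5 and FABP7 UMIs of contractile cells and 75.4% (75.2 to 75.7%) of those of remaining progenitors. Such a share sets the UMIs of both genes against each other, and the annotated FABP7 and FABP5 genes are of similar length (4359 and 4242 bases). Whether gene length affects the levels of longer markers was not tested. How much of the FABP7 left in contractile cells was free RNA from other cells was not tested.

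The difference between the groups was also seen cell by cell. To set aside depth, each cell was thinned at random to 5000 UMIs, which left out 3 contractile cells, 1 newborn neuron-like cell and 24 remaining progenitors. Of the thinned contractile cells, 1216 of 1554 (78.2%) held more FABP5 than FABP7 and 81 (5.21%) more FABP7. Of the thinned remaining progenitors, 8414 of 12199 (69.0%) held more FABP7 and 1518 (12.4%) more FABP5. Both genes were found in 16.3% of contractile cells and in 40.9% of remaining progenitors. The other FABP genes were low, and some of them differed as well. FABP3, the heart member of the family, was at 15.9 CPM (15.0 to 16.9) in contractile cells from 1202 UMIs and at 2.26 CPM (2.07 to 2.46) in remaining progenitors. FABP4, the member of fat cells, was at 1.498 CPM (1.23 to 1.80) from 113 UMIs against 0.0339 CPM from 8 UMIs. FABP6 was at 0.384 against 1.63 CPM, and FABP1, FABP2, FABP9 and FABP12 held between 3 and 7 UMIs each in all kept cells. These genes were named after their values were seen. Of 13 other genes of the lipid-binding family, 3 reached 10 CPM over all kept cells. Of these, CRABP1, a binder of retinoic acid, was lower in contractile cells (14.7 against 49.6 CPM, ratio 0.297), and CRABP2 was within 1.5-fold.

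**Figure D2:**
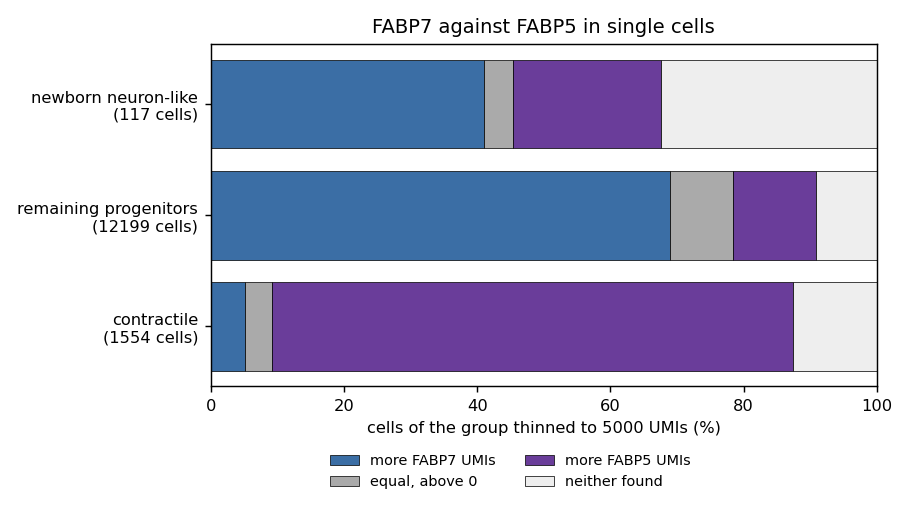
Share of cells (x axis, percent of the cells of a group, each thinned to 5000 UMIs) with more FABP7 than FABP5 UMIs, more FABP5, equal numbers above 0, or neither gene. Of contractile cells 78.2% held more FABP5, and of remaining progenitors 69.0% held more FABP7.

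PTPRZ1 and TNC, a receptor and a matrix protein that can bind each other, also parted. PTPRZ1, a receptor tyrosine phosphatase of radial glia and oligodendrocyte precursors, was at 97.6 CPM (95.4 to 99.9) in contractile cells and at 687 CPM (684 to 690) in remaining progenitors, 7.04-fold lower. TNC, the matrix glycoprotein tenascin C, was at 59.0 CPM (57.3 to 60.8) from 4454 UMIs against 3.28 CPM (3.05 to 3.52) from 774 UMIs, a ratio of 18.0 (16.7 to 19.5). Thinned to 5000 UMIs, 15.3% of contractile cells and 1.46% of remaining progenitors held a TNC UMI. Before thinning these shares were 45.3% and 4.88%, at median depths of 47278 and 16956 UMIs. No cell group here is known to lack TNC, so a share set by free RNA could not be read from a negative control. In the 7815 remaining progenitors with 0 UMIs of the 3 contractile genes TNC stood at 3.05 CPM, and the part of free RNA in this level was not tested.

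Of 17 other genes for partners of TNC and PTPRZ1, 8 reached 10 CPM, of which 3 were higher and 4 lower in contractile cells (median ratio 0.709). The integrin chains ITGAV (360 against 87.5 CPM, ratio 4.12) and ITGB1 (773 against 259 CPM, ratio 2.99), which bind tenascins, were higher, as was the syndecan SDC4 (19.7 against 10.5 CPM, ratio 1.89). PTN, a secreted ligand of PTPRZ1, was lower, at 442 against 858 CPM (ratio 0.515).

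SLC1A3 and LIX1 were within 1.5-fold between these groups over all cells, although not among cells of a narrower range of depth. SLC1A3 encodes the glutamate and aspartate transporter GLAST of radial glia and astrocytes. It was at 35.6 CPM (34.2 to 36.9) in contractile cells and 28.5 CPM (27.8 to 29.2) in remaining progenitors, a ratio of 1.247 (1.19 to 1.30). LIX1, a gene first described in the limb and seen in early neural tissue, was at 66.1 CPM (64.3 to 68.0) against 46.1 CPM (45.2 to 46.9), a ratio of 1.44 (1.39 to 1.48). Its antisense gene LIX1-AS1 went the other way, with 9.98 CPM in contractile cells and 16.95 CPM in remaining progenitors. With the median ratio of all genes set to 1, the LIX1 ratio became 1.65 and thus passed 1.5-fold, while that of SLC1A3 became 1.44. Among cells with 15000 to 40000 UMIs both passed 1.5-fold, at 1.65 (1.54 to 1.76) for LIX1 and 1.53 (1.41 to 1.66) for SLC1A3. Among the 6 other transporters of the SLC1 family, 5 reached 10 CPM, and SLC1A5 (72.3 against 22.1 CPM, ratio 3.27) and SLC1A1 (36.0 against 12.8 CPM, ratio 2.82) were higher. SLC1A2, the other glial glutamate transporter, was lower, at 2.45 against 13.6 CPM (ratio 0.180), and SLC1A6 was lower as well (8.96 against 23.8 CPM, ratio 0.377).

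HOPX, a small homeodomain protein and marker of outer radial glia, was close to the limit of detection. It had 103 UMIs in contractile cells (1.36 CPM, 1.11 to 1.66) and 40 UMIs in remaining progenitors (0.169 CPM, 0.121 to 0.231), a ratio of 8.06 (5.54 to 11.9). After thinning, a HOPX UMI was found in 0.708% of contractile cells and 0.139% of remaining progenitors. Most contractile cells thus held no HOPX UMI, also before thinning (5.85% with a UMI). Of 12 further genes of outer radial glia, 5 reached 10 CPM, and FAM107A, one of the most used, was at 0.791 CPM over all kept cells. PEA15 (137 against 36.2 CPM, ratio 3.77) and IL6ST (38.2 against 24.5 CPM, ratio 1.56) were higher in contractile cells and PDGFD was lower (21.8 against 47.8 CPM, ratio 0.457).

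Most other radial glia genes, which were listed apart from the 9 markers, lay on the side of FABP7 and PTPRZ1. Of 16 such genes 15 reached 10 CPM, and 12 of these were at least 1.5-fold lower in contractile cells and none higher (median ratio 0.385, against 0.868 for all genes). HES5, the main effector of Notch signaling in neural stem cells, was at 10.3 against 182 CPM (ratio 0.0565). DACH1 (53.4 against 393 CPM, ratio 0.136) and SLC1A2 were among the other genes that were lower. CDH2 (947.5 against 759.2 CPM), ID4 (112.8 against 109.7 CPM) and HES1 (88.96 against 111.6 CPM) were within 1.5-fold. Some genes of this list are also among the neural progenitor markers by which the groups were checked. The list and the markers were chosen with earlier results of these data known.

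**Figure D3:**
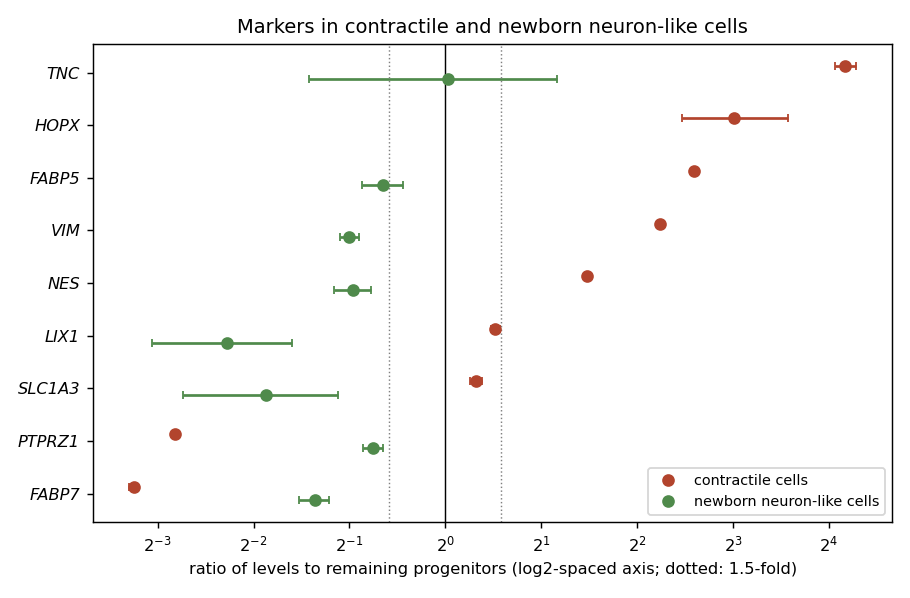
Ratio of the level in contractile cells (red) or newborn neuron-like cells (green) to that in remaining progenitors (x axis, log2-spaced), one line per marker, with exact 95% counting intervals and dotted lines at 1.5-fold. In contractile cells the ratios run from 0.105 for FABP7 to 18.0 for TNC, and in newborn neuron-like cells 7 of the markers lie below the lower dotted line.

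The directions were also the same in a narrower range of depth, within which the groups can still differ in depth. Among cells with 15000 to 40000 UMIs, 476 contractile cells and 7259 remaining progenitors, the ratios were 2.44 for NES, 4.16 for VIM, 3.28 for FABP5, 8.79 for TNC, 0.141 for FABP7 and 0.221 for PTPRZ1. These 6 ratios were closer to 1 than over all cells, while those of LIX1 and SLC1A3 were farther from 1, so that 7 instead of 5 markers were at least 1.5-fold higher. By mean UMIs per cell, with no scaling, NES was 6.98, VIM 11.8, FABP5 15.1 and TNC 45.2 times as high, and FABP7 and PTPRZ1 remained lower, at ratios of 0.264 and 0.356. On that scale LIX1 (3.60) and SLC1A3 (3.13) were higher too.

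The markers also varied along the level of the contractile genes, on either side of the threshold. The remaining progenitors and contractile cells, without the newborn neuron-like cells and the 27 cells over both thresholds, were set in order by their UMIs of the 3 contractile genes per 10000, from 7815 cells at 0 to 36 cells at 50 or more. FABP7 was at 557 CPM in the cells at 0, at 166 CPM in the 475 cells from 2 to 5, which still count as progenitors, at 94.4 CPM from 5 to 10 and at 33.0 CPM from 20 to 50. PTPRZ1 ran from 749 CPM at 0 over 321 CPM (2 to 5) to 56.8 CPM (20 to 50). VIM ran from 765 CPM at 0 over 2089 CPM (2 to 5) to 4724 CPM (20 to 50), and NES from 213 over 433 to 715 CPM. FABP5 differed less below the threshold, from 146 CPM at 0 to 248 CPM (2 to 5), 487 CPM (5 to 10) and 1164 CPM (20 to 50).

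TNC differed mostly above the threshold, with 3.05 CPM at 0, 6.54 CPM from 2 to 5, 20.03 CPM from 5 to 10 and 74.0 CPM from 20 to 50. LIX1 and SLC1A3 had their highest levels in the middle, at 79.4 and 40.2 CPM in the 518 cells from 10 to 20, and stood at 56.9 and 31.5 CPM in the cells from 20 to 50. Median depth moved along this order as well, from 15800 UMIs at 0 to 54250 UMIs from 20 to 50. After thinning to 5000 UMIs, the end points for FABP7 were 586 and 33.6 CPM and those for VIM 788 and 4711 CPM. Just under the threshold (89 cells from 4 to 5) and just over it (72 cells from 5 to 6), FABP7 was at 130 and 120 CPM, VIM at 2558 and 2763 CPM, FABP5 at 311 and 403 CPM and TNC at 9.96 and 23.6 CPM. The counting intervals on either side overlapped for FABP7 and did not for VIM (2501 to 2617 and 2699 to 2828 CPM), FABP5 (291 to 332 and 378 to 428 CPM) and TNC (6.67 to 14.3 and 18.0 to 30.3 CPM). These intervals leave out the spread between cells, so they cannot show a step at the threshold, which was not tested.

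**Figure D4:**
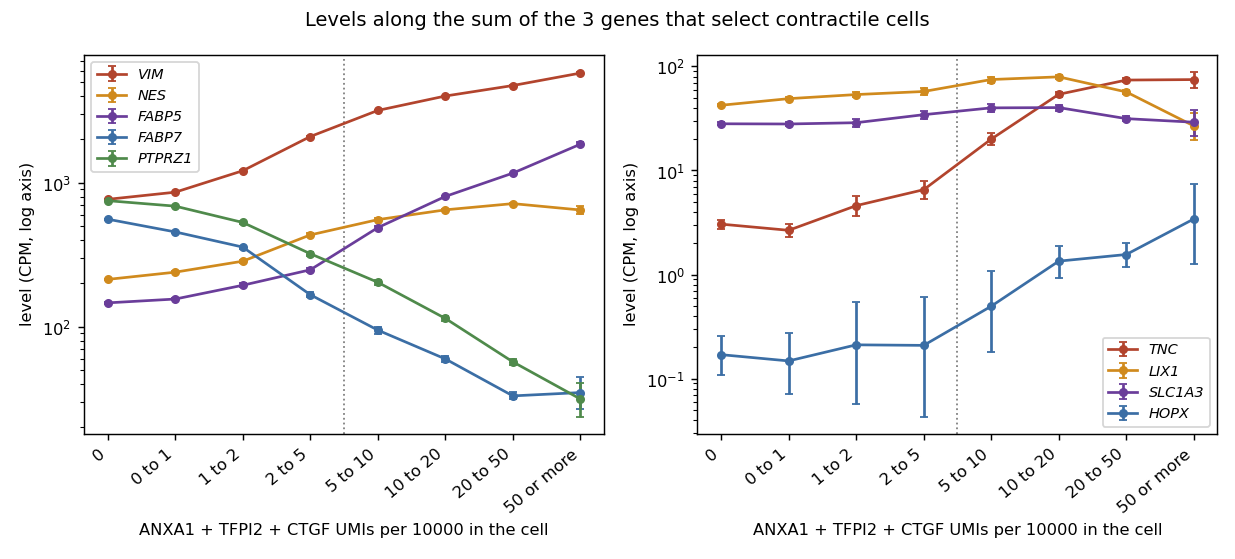
Level of the markers (y axis, CPM, log scale) in remaining progenitors and contractile cells grouped by their UMIs of ANXA1, TFPI2 and CTGF per 10000 (x axis), with exact 95% counting intervals and a dotted line at the threshold of 5 for contractile cells. FABP7 and PTPRZ1 are lower, and VIM, NES and FABP5 higher, from group to group up to 20 to 50, while TNC goes from 6.54 CPM in the group from 2 to 5 to 74.0 CPM in the group from 20 to 50.

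Newborn neuron-like cells were lower in 7 of the 9 markers and higher in none by 1.5-fold. Across genes, 23.8% were at least 1.5-fold lower than in remaining progenitors and 10.8% at least 1.5-fold higher. The median ratio was 0.909. With a threshold of 3 instead of 5 UMIs per 10000, which gave 187 cells, 4 markers were lower and 1, TNC, was higher. NES was at 122 CPM (107 to 140) against 239 CPM, a ratio of 0.512 (0.446 to 0.584), and VIM at 454 CPM (423 to 486) against 908 CPM, a ratio of 0.50 (0.466 to 0.536). The neurofilament genes had the opposite course, with 164 CPM of NEFL against 49.0 CPM (ratio 3.35) and 208 CPM of INA, alpha-internexin, against 16.6 CPM (ratio 12.5). Of the 10 other filament genes at 10 CPM or more, 3 were higher and 5 lower, among the latter KRT18 (18.4 against 83.3 CPM, ratio 0.221).

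FABP7 was at 189 CPM (170 to 211) in newborn neuron-like cells, 2.57-fold lower than in remaining progenitors. FABP5 was at 101 CPM (87.0 to 117), 1.57-fold lower. The retinoic acid binder CRABP1 was higher (570 against 49.6 CPM, ratio 11.5). PTPRZ1 was the least reduced of the abundant markers after FABP5, at 409 CPM (380 to 439) against 687 CPM, a ratio of 0.595 (0.552 to 0.639).

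LIX1 and SLC1A3 had the lowest ratios, on few UMIs. LIX1 had 17 UMIs (9.5 CPM, 5.53 to 15.2), a ratio of 0.206 (0.120 to 0.330), and SLC1A3 had 14 UMIs (7.82 CPM, 4.28 to 13.1), a ratio of 0.274 (0.150 to 0.461). TNC had 6 UMIs (3.35 CPM), and the interval of its ratio, 0.374 to 2.24, spans both directions. HOPX had 0 UMIs, which allows up to 1.68 CPM, a limit above its level in contractile cells, so no difference was detectable at this depth. Of the 15 other radial glia genes at 10 CPM or more, 10 were lower and 3 higher. DACH1 was the farthest out on the high side (1106 against 393 CPM, ratio 2.82) and HES5 on the low side (46.4 against 182 CPM, ratio 0.254), with PROM1 (19.0 against 69.5 CPM, ratio 0.273) next.

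Set directly against newborn neuron-like cells, contractile cells had 9.41-fold more VIM (8.78 to 10.1), 5.44-fold more NES (4.76 to 6.24), 9.46-fold more FABP5 (8.18 to 11.0) and 3.70-fold less FABP7. PTPRZ1 was 4.18-fold lower in contractile cells. Across genes, 24.5% were at least 1.5-fold higher and 27.0% at least 1.5-fold lower in that comparison. FABP7 and PTPRZ1 were below remaining progenitors in both groups, and both of those comparisons share the remaining progenitors.

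Most newborn neuron-like cells were called G1 (99 of 118, 83.9%, 76.0 to 90.02%), against 26.3% of remaining progenitors and 22.7% of contractile cells. The comparison was therefore repeated among G1 cells, against 3218 remaining progenitors in G1, after the data had been seen. FABP5 then stood at 94.1 against 91.7 CPM, a ratio of 1.03 (0.851 to 1.23), so its lower level was not found within G1. VIM (ratio 0.347), FABP7 (0.290), NES (0.433), PTPRZ1 (0.475), SLC1A3 (0.219) and LIX1 (0.0693, 0.0143 to 0.203, from 3 UMIs) had lower ratios within G1 than over all phases. Among these G1 cells, 23.7% of genes were at least 1.5-fold lower and 10.9% higher. The newborn neuron-like cells called S (9) and G2/M (10) were too few to describe, and 5 of those 9 were called doublets, that is, barcodes that look like 2 cells. Called doublets made up 5.08% of all newborn neuron-like cells, 2.89% of contractile cells and 1.58% of remaining progenitors.

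Cell cycle phases were called from 43 S and 54 G2/M genes, and levels were compared among the remaining progenitors, of which 3218 were called G1, 5253 S and 3752 G2/M. Genes outside both lists were read as a check. PLK1, a mitotic kinase, stood at 2.02, 8.75 and 83.6 CPM in G1, S and G2/M, and thus set G2/M apart. The histone genes, which are made in S phase, set G1 apart and hardly separated S from G2/M. HIST1H1B stood at 3.46, 80.1 and 72.3 CPM, HIST1H3B at 1.41, 35.0 and 30.95 CPM and HIST1H4C at 66.2, 500 and 523 CPM, the last being higher in G2/M than in S. Median depth rose with phase, from 13513 UMIs in G1 over 17033 in S to 21890.5 in G2/M. The scores behind the calls can depend on depth, and after thinning 28.3%, 38.2% and 33.5% of cells were called G1, S and G2/M, against 26.3%, 43.0% and 30.7% before.

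FABP5 had the clearest tie to the cycle. It was at 91.7 CPM (89.0 to 94.5) in G1, 185 CPM (182 to 188) in S and 165 CPM (163 to 168) in G2/M, so S was 2.02-fold above G1 (1.95 to 2.08). LIX1 was at 32.9, 46.8 and 52.3 CPM, and G2/M was 1.59-fold above G1 (1.501 to 1.69). VIM went the other way, with 1108, 887 and 825 CPM, so that G2/M stood at 0.745 of G1 (0.737 to 0.754), although by UMIs per cell it was 1.21-fold higher. By UMIs per cell FABP7, PTPRZ1, SLC1A3 and TNC were also higher in G2/M than in G1, and not lower. FABP7 was at 491, 548 and 420 CPM, highest in S and 1.30-fold lower in G2/M. Levels also varied with depth among remaining progenitors. From their shallowest to their deepest quartile, FABP7 went from 655 to 367 CPM and NES from 181 to 290 CPM. Of these quartiles 13.9% and 56.4% of cells were called G2/M, and the part of depth in the phase differences was not tested.

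PTPRZ1 (757, 714 and 620 CPM), NES (225, 235 and 252 CPM), SLC1A3 (27.7, 30.5 and 26.7 CPM) and TNC (3.57, 3.28 and 3.12 CPM) stayed under a 25% rise from their lowest to their highest phase. Among cells with 15000 to 40000 UMIs the NES ratio of G2/M to G1 was 0.891, against 1.12 over all depths. HOPX had 5, 23 and 12 UMIs. Its ratio to G1 was 2.20 (0.819 to 7.41) in S and 1.27 (0.416 to 4.59) in G2/M. From S to G2/M it was 0.576 (0.261 to 1.21). All these intervals span both directions. In all, 5 of the 9 markers were at least 25% higher in their highest than in their lowest phase, while 45.9% of the 10000 genes did so. HOPX was among the 5 but is not one of the 10000 genes. From G1 to S, 18.9% of genes were at least 25% higher and 13.4% at least 20% lower, and the markers past these limits were FABP5 and LIX1 upward, besides HOPX. From G1 to G2/M, 20.1% were higher and 12.6% lower, with FABP5, LIX1 and HOPX upward and VIM downward. From S to G2/M, 7.66% were higher and 7.99% lower, with FABP7 and HOPX downward. With phase, FABP7 made up 84.2%, 74.7% and 71.8% of the FABP5 and FABP7 UMIs in G1, S and G2/M.

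**Figure D5:**
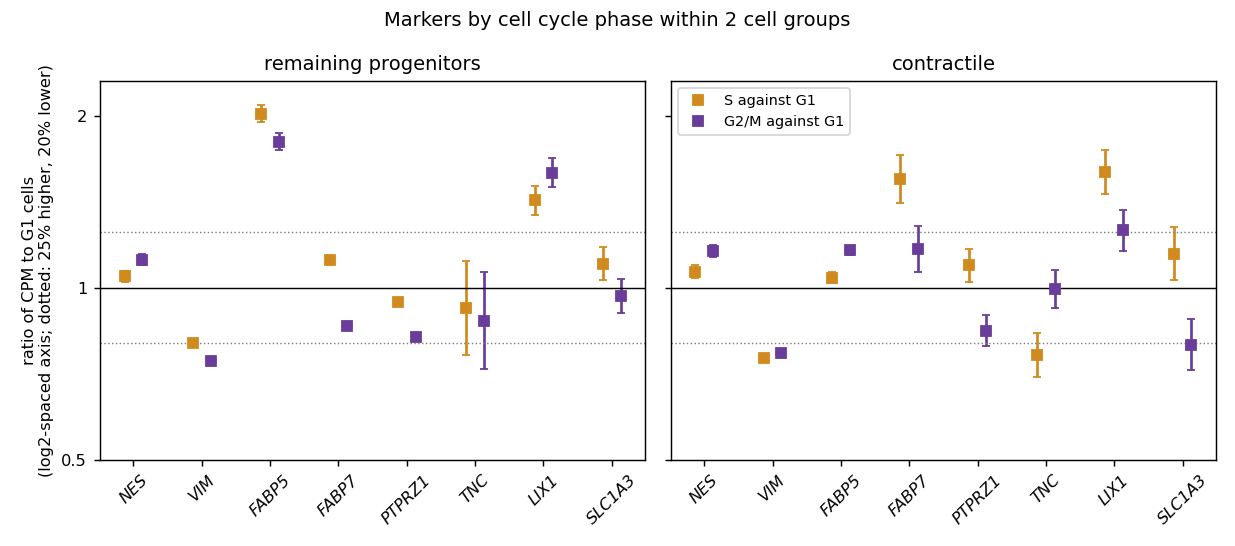
Ratio of the level in cells called S or G2/M to that in cells called G1 (y axis, log2-spaced) for 8 markers in remaining progenitors and in contractile cells, with exact 95% counting intervals and dotted lines at 25% higher and 20% lower. In remaining progenitors FABP5 reaches 2.02 in S, while in contractile cells it stays near 1 and VIM is lower in both phases.

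Contractile cells kept part of this pattern. VIM again stood lower in S (ratio to G1 0.752) and G2/M (0.768), at 5283, 3973 and 4058 CPM. FABP5 was nearly level, with 874, 910 and 1015 CPM and an S to G1 ratio of 1.04 (1.02 to 1.06), where remaining progenitors had 2.02. LIX1 was higher in S (80.7 against 50.6 CPM, ratio 1.59), and FABP7 too (63.8 against 41.1 CPM, ratio 1.55). TNC was lower in S than in G1 (48.5 against 63.6 CPM, ratio 0.762). In G2/M against G1, LIX1 was higher (ratio 1.26) and SLC1A3 lower (0.795). In G2/M against S, SLC1A3 was lower (30.2 against 43.5 CPM, ratio 0.693). FABP7 (0.754), PTPRZ1 (0.769) and LIX1 (0.791) were lower in that comparison too, while TNC was higher (1.30). After thinning, PTPRZ1 differed less, with 112 CPM in S and 96.0 CPM in G2/M. HOPX, with 16 UMIs in G1, is left out here. Across genes, 20.7% were at least 25% higher and 13.7% at least 20% lower in S than in G1 of contractile cells, 19.3% and 13.4% in G2/M than in G1, and 4.88% and 8.85% in G2/M than in S.

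The differences between contractile cells and remaining progenitors held within each phase. The ratio of NES was 2.69 in G1, 2.74 in S and 2.79 in G2/M. That of VIM ran from 4.48 (S) to 4.92 (G2/M), that of FABP7 from 0.0839 (G1) to 0.116 (S) and that of PTPRZ1 from 0.136 (G1) to 0.158 (S). TNC had ratios of 17.9, 14.8 and 20.3. FABP5 varied most, with 9.52 in G1, 4.92 in S and 6.14 in G2/M, and its level in remaining progenitors was lowest in G1. LIX1 passed 1.5-fold in G1 (1.54) and S (1.73) and not in G2/M (1.22). At least 1.5-fold higher were 13.6%, 11.0% and 10.8% of genes in G1, S and G2/M, and at least 1.5-fold lower were 27.5%, 25.1% and 28.0%.

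Cells of one group still differed from each other. Thinned to 5000 UMIs, the middle contractile cell held 19 VIM UMIs, with 9 at the tenth and 36 at the ninetieth percentile, and the middle remaining progenitor 4, with 1 and 8. For FABP5 the middle contractile cell held 2 UMIs and the ninetieth percentile was 11, and the variance was 7.10 times the mean, where counting alone would give 1. The same quotient was 6.34 for VIM, 2.05 for TNC and 1.72 for NES in contractile cells. In remaining progenitors it was 2.58 for VIM, 2.19 for FABP7, 1.52 for PTPRZ1 and 1.14 for SLC1A3.

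Within the contractile cells FABP5 and VIM went together most, with a Pearson's r of 0.457 between log counts over 1554 cells of the same library, all thinned to the same depth. The most negative pair was PTPRZ1 and VIM (−0.273). Within the 12199 thinned remaining progenitors FABP5 and VIM had −0.00870, and the highest and lowest pairs were FABP7 with PTPRZ1 (0.190) and FABP7 with VIM (−0.178). FABP5 and FABP7 had 0.0624 in remaining progenitors and −0.0977 in contractile cells. These are descriptions of cells of 1 library, and no p was computed.

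Among 7680 genes with at least 0.1 UMI per thinned remaining progenitor, the gene most like FABP7 across cells was HES5 (r = 0.359). For VIM they were the cytoskeletal genes TAGLN (0.362), TMSB4X (0.345) and ACTG1 (0.344), and for NES TAGLN (0.178) came first as well. PTPRZ1 was most like SOX5 (0.254). FABP5 was most like H2AFZ (0.215), RANBP1 (0.187) and PTMA (0.181), which are abundant in dividing cells. LIX1 was most like EPHA3 (0.192), and SLC1A3 had no gene above 0.0727 (GPC6). TAGLN, named here after its values were seen, was also the gene least like FABP7 (−0.332) and PTPRZ1 (−0.262).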

How the data were processed

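Single-cell RNA-seq of 1 library was used, with a stated target of 20000 cells at 10000 per well (10x Chromium 3′ HT v3.1). The authors deposited raw counts, the UMIs per gene and barcode with no normalization, made with Cell Ranger 7.0.1 at default settings on GRCh38 (the submitters' processing notes also name Seurat 4.4.0). The annotation version and strand setting are not given in the sources used here. Barcodes with 2000 to 10000 genes and a mitochondrial share below 0.1 were kept, following the study's methods.

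UMIs were pooled per cell group, divided by all UMIs of the group (CPM) and compared as ratios, with exact Poisson, exact conditional or Clopper-Pearson 95% intervals for levels, ratios and shares. The limit of a count of 0 is 3 counts. A difference was counted from 1.5-fold between groups and from 25% higher or 20% lower between phases, and background shares used genes with at least 10 CPM over all kept cells. Phases were called with scanpy 1.11.5 and the Seurat gene lists. Thinning to 5000 UMIs used a fixed seed. Scrublet in scanpy marked 275 of 14726 barcodes (1.87%) as doublets at its automatic threshold of 0.380. They were not removed, and removal was an alternative. Tables were handled in pandas 2.3.3 and numpy 2.4.6 (Python 3.11.15), intervals came from scipy 1.17.1 and plots from matplotlib 3.10.9. The pooling and intervals were tested on simulated data. Those counts were drawn with counting error only, so the test could not show how the intervals behave with spread between cells. Gene positions came from GENCODE on GRCh38.

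All 9 markers were named. Of each other list up to 4 genes past the fold with the largest ratios were named, and for likeness up to 3 genes per marker. The markers and lists were chosen with earlier results of these data known. Alternatives changed both group thresholds, the scaling, the depth, the quality limits, the doublets and the phase calls. Other libraries were not analysed here. Results for some genes are not reported here.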

Additional observations from a re-analysis of the deposited data

Results flagged for a closer look

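The 801 barcodes outside the quality limits also held the markers, above the limit that a count of 0 allows. Their levels were 3261 CPM for VIM, 854.8 CPM for FABP5, 526.6 CPM for NES, 269 CPM for PTPRZ1, 110.2 CPM for FABP7, 73.42 CPM for TNC, 43.3 CPM for LIX1, 33.51 CPM for SLC1A3 and 1.541 CPM for HOPX. The 94 barcodes with over 10000 genes, at a median of 103900 UMIs, gave most of these UMIs, and their FABP7 level was 97.3 CPM and their VIM level 3912 CPM. In the 520 barcodes with fewer than 2000 genes FABP7 was at 125 CPM, VIM at 1171 CPM and TNC at 16.8 CPM. No comparison between such barcodes and the cell groups was tested.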

How the results depend on the processing

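No paired analysis was possible because there was 1 library. Of 59 recomputed counts of markers, 55 stayed within 1.5 times the reported count. With a threshold of 3 instead of 5 UMIs per 10000 for newborn neuron-like cells (187 cells), 4 markers instead of 7 were lower and 1 instead of 0 was higher (TNC). With every cell thinned to 5000 UMIs, 1 marker instead of 0 was higher in them (TNC, ratio 2.66 with an interval of 0.854 to 6.31). By mean UMIs per cell, 8 markers instead of 5 differed between phases. The cause was not tested, except that cells of later phases hold more UMIs. Of 501 recomputed marker ratios, 27 lay on the other side of 1 than the reported ratio, 14 of them between phases or for TNC in newborn neuron-like cells by mean UMIs per cell. In 23 of the 27 the reported ratio was within the limits counted as a difference, and in 4 it was past them. FABP5 in newborn neuron-like cells had a ratio of 1.03 among G1 cells alone, and VIM from G1 to G2/M had 1.21 by UMIs per cell. HOPX from S to G2/M had 1.23 after thinning and 1.1 with phases called by ranked list shares, both from few UMIs. Removing the 275 called doublets or the 1178 barcodes with the highest scores left all 5 counts as reported. Direction in contractile cells was kept for all 9 markers under all 12 alternatives run for them. Removal of called doublets and the G1 comparison were added after seeing the data.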
